A study of Mus musculus with 12 samples.

Results

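Lipid-associated macrophages are macrophages that take up and process lipid in fatty tissue, in atherosclerotic lesions and in tumors, and they share a set of genes. The 8 genes described here are Spp1, Lpl, Trem2, Gpnmb, Fabp4, Fabp5, Cd9 and Apoe, out of 54232 genes in the table, of which 16281 had enough reads to be tested. They were selected from the known lipid-associated programme with earlier results of these same counts in view, so their levels, folds and calls are a description and carry no p-value. All 8 passed the filter on low counts.

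The cells were macrophages grown from C57BL/6 mouse bone marrow (BMDMs), cultured for 5 days and then treated for 24 h. There were 6 groups of 2 libraries each. NS had no tumor-conditioned medium (TCM) and no drug, and NB9464_TCM and NBT3L_TCM had medium from mouse neuroblastoma cells with and without MYCN amplification. R788, NB9464_TCM_R788 and NBT3L_TCM_R788 had 500 nM R788 on NS cells or on the respective medium. R788 is fostamatinib, a drug that inhibits the tyrosine kinase Syk. The TCM was conditioned by cultured lines and not by tumors. Per the study's methods, the macrophages were grown in RPMI with serum and M-CSF, whereas NB9464 TCM was serum-free DMEM. The medium of the NS cells during the treatment, the making of NBT3L TCM and any vehicle for R788 were not given, so TCM against NS includes any difference in base medium, serum or M-CSF. Whether the libraries of a group came from separate cultures or animals was not stated, and p-values then measure only the spread between these libraries.

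In this programme, Trem2 codes for a lipid-sensing surface receptor that signals through the adaptor DAP12 (gene Tyrobp), and phosphorylated DAP12 recruits Syk, the kinase that R788 inhibits. Lpl codes for lipoprotein lipase, which releases fatty acids from circulating lipoproteins, and Fabp4 and Fabp5 code for proteins that carry fatty acids inside the cell. Apoe codes for apolipoprotein E, a lipid carrier whose gene is a target of the liver X receptors. Gpnmb codes for a membrane glycoprotein of the endolysosomal system, Cd9 for a tetraspanin of the plasma membrane, and Spp1 for osteopontin, a secreted phosphoprotein that binds CD44 and integrins.

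Library totals ranged from 44977847 to 56449685 counts. Of the libraries, 11 detected 17275 to 18343 genes, whereas the second R788 library (SJ8) detected 16149, and that pair differed most between replicates (SD of the log2 difference 0.273 over 9824 genes, against 0.172 to 0.202 in the other pairs). The log2 changes of single genes with R788 without TCM, and the differences from them, are therefore also given without SJ8. All 8 macrophage markers were present in every group, with a summed level of 72383 to 86874 TPM, a level per length and library. Most of this sum was Lyz2, with group means from 65162 to 75914 TPM. The others moved in different directions. As mean TPM in NS and NB9464 TCM, Adgre1 had 1450 and 3650 and Cd68 2990 and 1600, and Fcgr1 had 342 in NS and 76.8 with R788 alone. The 10 neuroblastoma markers summed to 1.86 to 5.13 TPM, with Th and Chga at 0 in every library, the 6 dendritic cell markers to 0.493 to 3.22 TPM, and the 6 lymphocyte markers to 0.0668 to 1.32 TPM. In bulk RNA, fewer cells of a type and less RNA per cell cannot be told apart.

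The 250 bases before the start site are shown for 4 of the genes because they followed different patterns: Spp1 fell with TCM and with R788, Trem2 fell with TCM and was not called with R788, Gpnmb rose with R788 without TCM and fell with it in TCM, and Apoe rose most with R788 without TCM. The sequences are from RefSeq on GRCm38.p6, which is the mm10 build of the table, and 5 of the 8 genes had an entry. Lpl, Fabp4 and Fabp5 are named only. Capitals mark exact matches to the searched motifs on either strand.
Spp1, chr5:104434861-104435110, plus strand: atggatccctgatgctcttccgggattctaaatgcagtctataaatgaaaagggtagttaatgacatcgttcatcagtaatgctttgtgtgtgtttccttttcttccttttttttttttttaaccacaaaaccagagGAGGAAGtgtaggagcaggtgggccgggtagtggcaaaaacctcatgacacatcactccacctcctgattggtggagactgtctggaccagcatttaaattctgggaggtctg
Trem2, chr17:48346151-48346400, plus strand: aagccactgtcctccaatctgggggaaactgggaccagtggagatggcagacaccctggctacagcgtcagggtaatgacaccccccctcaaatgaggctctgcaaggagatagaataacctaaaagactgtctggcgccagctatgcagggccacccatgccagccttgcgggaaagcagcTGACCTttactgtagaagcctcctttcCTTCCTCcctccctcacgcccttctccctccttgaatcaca
Gpnmb, chr6:49036268-49036517, plus strand: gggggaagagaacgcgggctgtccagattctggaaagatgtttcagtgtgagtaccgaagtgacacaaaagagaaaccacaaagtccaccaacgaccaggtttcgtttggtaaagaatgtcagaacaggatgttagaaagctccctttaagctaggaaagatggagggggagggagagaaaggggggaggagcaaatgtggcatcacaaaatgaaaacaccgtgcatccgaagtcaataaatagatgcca
Apoe, chr7:19699189-19699438, minus strand: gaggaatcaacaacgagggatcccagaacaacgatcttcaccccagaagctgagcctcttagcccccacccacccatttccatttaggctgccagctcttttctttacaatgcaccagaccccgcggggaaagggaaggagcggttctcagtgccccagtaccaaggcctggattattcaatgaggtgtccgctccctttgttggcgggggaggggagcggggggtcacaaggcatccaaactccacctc
The motif TGACTCA is bound by AP-1. The M-box core CATGTG and the E-box CACGTG are bound by MITF-family factors. The element AGGTCA is bound by nuclear receptors such as PPARs. The core GAGGAAG is bound by the myeloid factor PU.1. The motifs do not overlap each other in these windows. The Spp1 window held a single match, the PU.1 core starting 113 bases before the start site. Trem2 held the nuclear receptor element at 68 bases and a PU.1 core at 41 bases, both on the minus strand. Of the genes not printed, Cd9 held an M-box core at 38 bases. No searched motif was in the windows of Gpnmb and Apoe at this start site. Among all 32851 promoter windows of the same length, 4.46% held the AP-1 motif, 12.3% the M-box core, 6.02% the E-box, 14.0% the nuclear receptor element and 10.6% the PU.1 core.

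Spp1 (ENSMUSG00000029304, chromosome 5, 104435118 to 104441050, plus strand) had the widest range of the 8 genes. The NS libraries held 135345 and 137111 normalized counts, and those with NB9464 TCM held 35422 and 35347. With NBT3L TCM the values were 19340 and 18887, and with R788 alone 23319 and 21817. They were 3791 and 4019 with NB9464 TCM and R788, and 3720 and 3850 with NBT3L TCM and R788. NS was thus highest, the single treatments lay between, and both combinations were lowest, with neighboring groups in this order overlapping only between the 2 combinations. On the TPM scale, which divides by gene length, Spp1 ranked 13 and 14 among all genes in the NS libraries and between 1064 and 1228 in the 4 libraries with TCM and R788.

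Relative to NS, Spp1 fell by 1.94 ± 0.050 on the log2 scale with NB9464 TCM (SE, 3.85-fold) and by 2.83 ± 0.050 with NBT3L TCM (7.13-fold). R788 lowered it in every medium. The change was -2.59 ± 0.050 without TCM, and it was -2.55 without SJ8. In NB9464 TCM it was -3.18 ± 0.052 (9.06-fold) and in NBT3L TCM -2.34 ± 0.053 (5.05-fold). The R788 effect was larger in NB9464 TCM than without TCM (difference -0.59 ± 0.072, and -0.63 without SJ8) and larger than in NBT3L TCM (difference -0.84 ± 0.074). In NBT3L TCM it was smaller than without TCM (difference 0.26 ± 0.072, and 0.21 without SJ8), a call lost when NBT3L_TCM library 6 (0.24) or NBT3L_TCM_R788 library 12 (0.23) was left out. Without R788, Spp1 was 1.85-fold higher in NB9464 TCM than in NBT3L TCM (log2 0.89 ± 0.050), whereas with R788 the difference was 0.04 (95% interval -0.06 to 0.15) and was not called. The mean with TCM and R788 together was 2.87% of NS for NB9464 TCM and 2.78% for NBT3L TCM. Spp1 shares 309 exon bases on the same strand with Gm42793, which had a mean of 34.58 counts.

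Osteoclasts also express Spp1. The 6 osteoclast markers summed to 54.6 to 88.4 TPM without TCM and to 167 to 223 TPM with TCM, a sum led by Acp5, with 23.8 and 25.1 TPM in NS and 193 and 187 TPM in NB9464 TCM with R788. The fusion and proton pump markers were lower with TCM. Ctsk was higher with TCM only in the absence of R788, at a mean of 47.1 TPM in NS, 54.1 TPM with NB9464 TCM and 60.7 TPM with NBT3L TCM. With R788, Ctsk had 41.5 TPM without TCM, 29.5 TPM in NB9464 TCM and 32.4 TPM in NBT3L TCM. As mean TPM in NS, NB9464 TCM and NBT3L TCM, Dcstamp had 4.66, 2.04 and 1.41, Ocstamp 0.755, 0.287 and 0.347, and Atp6v0d2 11.1, 3.63 and 3.43. Of the defining fusion and receptor markers, Calcr was at 0 in all 4 libraries without TCM, and Dcstamp had 189 and 201 normalized counts in NS against 5.97 and 0 in NB9464 TCM with R788. The part of these genes in the Spp1 result was not tested.

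**Figure D1:**
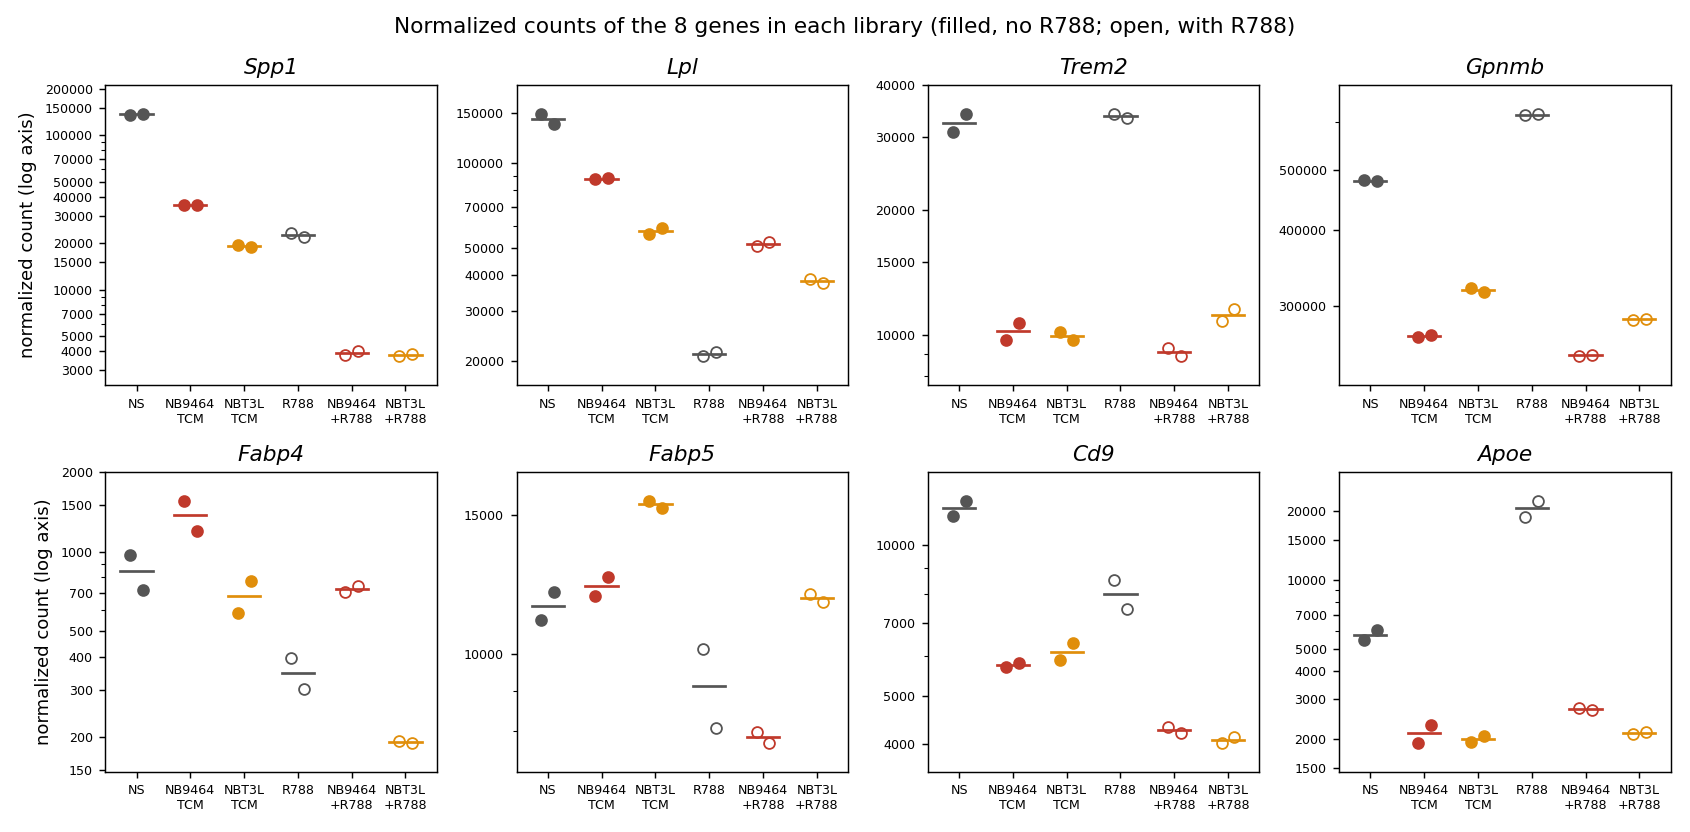
Normalized counts (log axis) of each gene in each library, by group. Points are libraries (filled without R788, open with R788) and the lines are group means; Spp1 runs from 135345 and 137111 in NS to 3720 and 3850 with NBT3L TCM and R788, and Apoe is highest with R788 alone.

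Lpl (ENSMUSG00000015568, chromosome 8, 68880491 to 68907448, plus strand) fell with each TCM and with R788, but R788 had a smaller effect in TCM than without it. Normalized counts were 148325 and 136458 in NS, 87650 and 87999 with NB9464 TCM, and 56049 and 58765 with NBT3L TCM. R788 alone gave 20814 and 21553, the lowest of the 6 groups. With R788 on top of TCM the values were 50608 and 52371 for NB9464 and 38914 and 37717 for NBT3L, both above R788 alone. No 2 neighboring groups overlapped.

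The fall in Lpl with R788 was 2.75 ± 0.052 on the log2 scale without TCM (6.72-fold, and -2.78 without SJ8), but it was -0.77 ± 0.051 in NB9464 TCM and -0.58 ± 0.052 in NBT3L TCM. The differences between these effects were 1.98 ± 0.073 and 2.17 ± 0.073, and 2.0 and 2.19 without SJ8. The observed means were 3.94 and 4.49 times the product of the separate TCM and R788 folds. TCM alone changed Lpl by -0.70 ± 0.051 (NB9464) and -1.31 ± 0.051 (NBT3L). Lpl was higher in NB9464 TCM than in NBT3L TCM without R788 (0.61 ± 0.051) and with it (0.43 ± 0.052). The ratio of Spp1 to Lpl counts, compared between groups, was 0.912 and 1 in NS, 1.12 and 1.01 with R788 alone, and 0.0749 to 0.102 in the combinations.

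Apoe (ENSMUSG00000002985, chromosome 7, 19696109 to 19699188, minus strand) rose with R788 without TCM. NS libraries had 5447 and 6055 normalized counts and R788 libraries 18913 and 22260. With NB9464 TCM the values were 1933 and 2320, and with NBT3L TCM 1953 and 2074. With R788 they were 2752 and 2679 in NB9464 TCM and 2109 and 2147 in NBT3L TCM. The R788 libraries stood above all others, and those with TCM and R788 stayed below NS.

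R788 raised Apoe by 1.84 ± 0.096 on the log2 scale without TCM (3.58-fold, and 1.72 without SJ8). In NB9464 TCM the change was 0.35 ± 0.099, a call lost without NB9464_TCM library 3 (0.23) or NB9464_TCM_R788 library 9 (0.33). In NBT3L TCM it was 0.08 (95% interval -0.12 to 0.28) and was not called. The R788 effect in TCM minus that without it was -1.49 ± 0.138 (NB9464) and -1.76 ± 0.139 (NBT3L), and -1.36 and -1.64 without SJ8. TCM alone changed Apoe by -1.44 ± 0.098 and -1.51 ± 0.099. The 6 fibroblast markers summed to 8.72 to 11.4 TPM in NS and 19.9 to 24.2 TPM with R788, led by Col1a1, and to 19.1 to 20 TPM in NBT3L TCM with R788. With R788 without TCM, Col1a1, Col1a2, Col3a1 and Pdgfra were higher than in NS. Dcn (0.327 TPM in NS, 0.142 with R788) and Lum (0.124 and 0.0246) were lower. Their part in the Apoe result was not tested.

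The fatty acid binding proteins differed from each other. Fabp5 (ENSMUSG00000027533, chromosome 3, 10012548 to 10016607, plus strand) had 11051 and 11987 normalized counts in NS, 11838 and 12527 with NB9464 TCM, and 15635 and 15308 with NBT3L TCM. R788 gave 10158 and 8061 without TCM, 7983 and 7732 in NB9464 TCM, and 11906 and 11646 in NBT3L TCM. NBT3L TCM was highest, and the R788 groups lay below their media. Fabp5 rose by 0.43 ± 0.086 with NBT3L TCM and was not called with NB9464 TCM (0.08, 95% interval -0.09 to 0.25). With R788 it changed by -0.34 ± 0.086 without TCM, by -0.63 ± 0.086 in NB9464 TCM and by -0.39 ± 0.086 in NBT3L TCM. Without SJ7 the change without TCM was -0.51. Without SJ8 it was -0.18, still called, and the difference between NB9464 TCM and no TCM (-0.29, not called) became -0.45 and called.

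Fabp5 has near-identical copies in the genome, so its counts are uncertain by the share that they take. The processed pseudogene Gm6166 matched it at 98.3% over 409 bases and held a mean of 1492 counts, against 11344 for Fabp5. Gm6166 counts were 10.1% to 15.0% of the Fabp5 counts in the 12 libraries. When Fabp5 was summed with its 5 pseudogene copies, no call changed and the R788 change without TCM was -0.38.

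Fabp4 (ENSMUSG00000062515, chromosome 3, 10204088 to 10208576, minus strand) was the lowest of the 8 genes per length, with 2.07 to 16.4 TPM as group means, and its replicates differed by 0.377 to 0.440 on the log2 scale in 4 of the 6 groups. Normalized counts were 974 and 718 in NS, 1555 and 1197 with NB9464 TCM, and 585 and 773 with NBT3L TCM. With R788 they were 395 and 303 without TCM, 705 and 743 in NB9464 TCM, and 193 and 190 in NBT3L TCM. With NB9464 TCM both libraries were above NS, and the R788 groups without TCM and in NBT3L TCM were lowest. With R788, Fabp4 changed by -1.28 ± 0.213 without TCM (-1.10 without SJ8), by -0.93 ± 0.210 in NB9464 TCM and by -1.83 ± 0.222 in NBT3L TCM. Relative to NS, it rose by 0.70 ± 0.209 with NB9464 TCM, a call lost without NS library 2 (0.50) or NB9464_TCM library 3 (0.50), and was not called with NBT3L TCM (-0.32).

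Fabp4 and Lpl are also adipocyte genes. The 6 adipocyte markers summed to 33.1 to 83.5 TPM, most of it Adipor2, which is not restricted to adipocytes. Adipoq, the defining marker, had 66 and 9 raw counts in the NS libraries, 55 and 26 with NB9464 TCM, 21 and 12 with NBT3L TCM, 14 and 7 with R788, 8 and 7 with NB9464 TCM and R788, and 0 and 11 with NBT3L TCM and R788. In the NS, NB9464 TCM and R788 pairs, the library with more Adipoq was also the library with more Fabp4, whereas in the NBT3L TCM pair and in both pairs with TCM and R788 it was not. The part of these reads in the Fabp4 result was not tested.

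Trem2 (ENSMUSG00000023992, chromosome 17, 48346401 to 48354147, plus strand) was lower with TCM, and its small R788 changes were not called in the fit of all libraries. Normalized counts were 30906 and 34055 in NS and 34070 and 33312 with R788. They were 9719 and 10732 with NB9464 TCM, 10167 and 9726 with NBT3L TCM, 9302 and 8919 with NB9464 TCM and R788, and 10817 and 11567 with NBT3L TCM and R788. Libraries with TCM did not overlap those without it. Trem2 fell by 1.67 ± 0.066 with NB9464 TCM (3.18-fold) and by 1.71 ± 0.067 with NBT3L TCM (3.27-fold). With R788 the changes were 0.05 without TCM (95% interval -0.08 to 0.18, and 0.07 without SJ8), -0.17 in NB9464 TCM (-0.30 to -0.04) and 0.17 in NBT3L TCM (0.04 to 0.30), and none was called. The last 2 were called when some single libraries were left out (-0.24 in NB9464 TCM without NB9464_TCM library 3). With R788, Trem2 was lower in NB9464 TCM than in NBT3L TCM (-0.30 ± 0.067), a call lost without NBT3L_TCM_R788 library 12 (-0.25).

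Gpnmb (ENSMUSG00000029816, chromosome 6, 49036546 to 49070929, plus strand) rose with R788 without TCM and fell in TCM. Normalized counts were 481708 and 480336 in NS, 267187 and 269996 with NB9464 TCM, and 321303 and 317140 with NBT3L TCM. With R788 they were 614564 and 617423 without TCM, 249094 and 250304 in NB9464 TCM, and 285514 and 286024 in NBT3L TCM. The 6 groups did not overlap, and R788 alone was highest, with 1.35% and 1.37% of all counts. Gpnmb fell by 0.84 ± 0.035 with NB9464 TCM and by 0.59 ± 0.035 with NBT3L TCM. R788 raised it by 0.36 ± 0.035 without TCM (0.35 without SJ8) whereas the change was -0.16 ± 0.035 in NBT3L TCM and -0.11 ± 0.035 in NB9464 TCM, and the latter call was lost in 10 of the 12 fits that left out a library, with values from -0.11 to -0.10. The differences of the R788 effect from that without TCM were -0.46 ± 0.049 (NB9464) and -0.52 ± 0.049 (NBT3L), and -0.46 and -0.51 without SJ8.

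Cd9 (ENSMUSG00000030342, chromosome 6, 125460266 to 125494791, minus strand) fell with TCM, and with R788 in every medium. Normalized counts were 11451 and 12293 in NS, 5714 and 5815 with NB9464 TCM, and 5893 and 6363 with NBT3L TCM. R788 gave 8527 and 7444 without TCM, 4332 and 4205 in NB9464 TCM, and 4022 and 4136 in NBT3L TCM. The order was NS, R788 alone, the TCM groups, and then the combinations. Cd9 fell by 1.04 ± 0.077 with NB9464 TCM and by 0.95 ± 0.077 with NBT3L TCM. With R788 it changed by -0.57 ± 0.077 without TCM (-0.48 without SJ8), by -0.43 ± 0.078 in NB9464 TCM and by -0.59 ± 0.078 in NBT3L TCM. The differences between these R788 effects were 0.14 (95% interval -0.08 to 0.35) and -0.01 (-0.23 to 0.20), and neither was called. Without SJ8 they were 0.05 and -0.11, again not called.

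Levels of different genes were compared per length. In NS, Spp1 (5266 ± 67.7 TPM, SD, n = 2) and Gpnmb (4705 ± 113 TPM) stood above Lpl (866 ± 70.1), Trem2 (418 ± 19.5), Cd9 (370 ± 10.4), Fabp5 (206 ± 7.29), Apoe (171 ± 9.04) and Fabp4 (12.03 ± 2.84). With R788 alone, Gpnmb (6357 ± 161 TPM), Apoe (648 ± 88.7 TPM) and Trem2 (458 ± 2.84 TPM) exceeded their NS levels, and Lpl (136 ± 6.36 TPM) ranked next to last. The change of Trem2 was not called in the fit of counts. With NB9464 TCM and R788, Gpnmb (1947 ± 72.9 TPM) led, followed by Lpl (250 ± 14.5 TPM) and Spp1 (120 ± 9.06 TPM). The table's gene lengths count every annotated exon, and with the length of the principal transcript Gpnmb (8281 TPM) stood above Spp1 (5759 TPM) in NS, Spp1 (132 TPM) fell below Trem2, Fabp5 and Cd9 with NB9464 TCM and R788, and Fabp4 (82.3 TPM) stood just above Apoe (80.5 TPM) with NB9464 TCM.

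**Figure D2:**
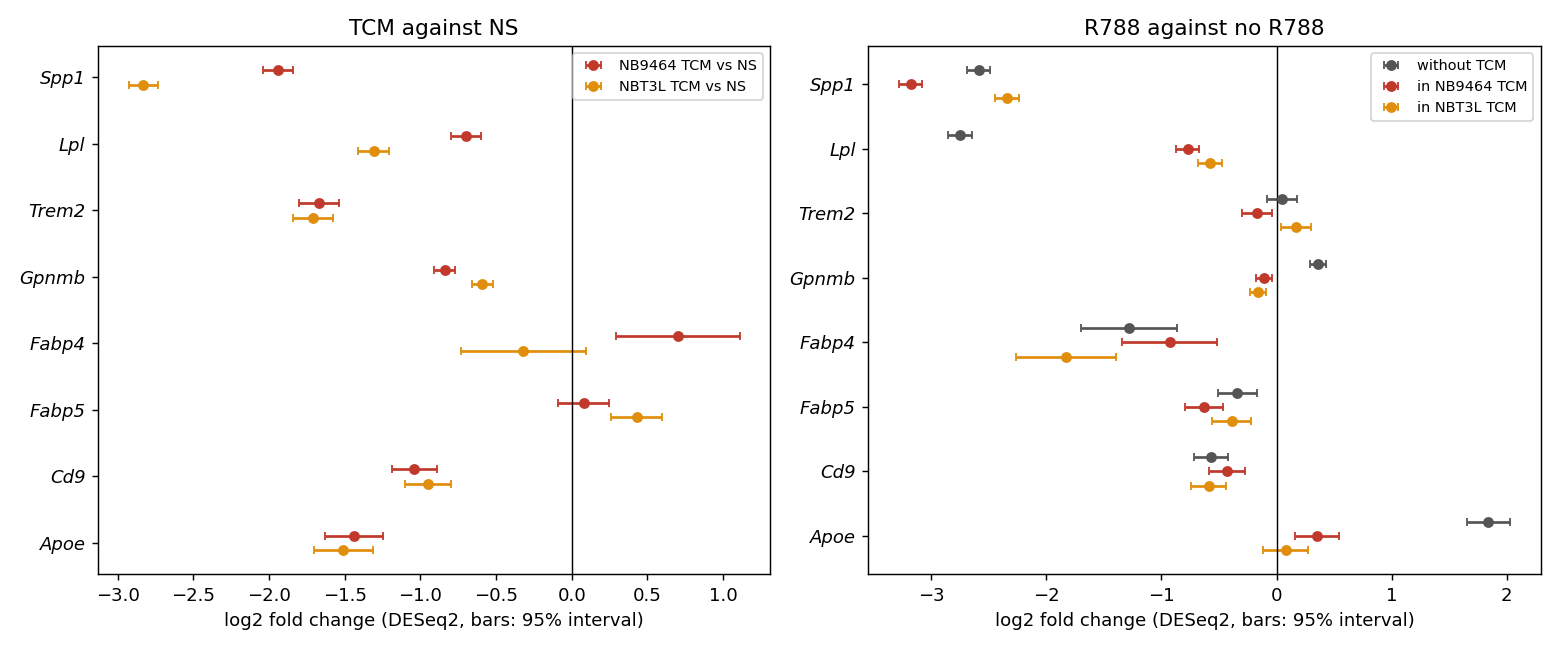
Log2 fold change of each gene from the DESeq2 fit for TCM against NS (left) and for R788 against no R788 in each medium (right), with 95% intervals. Spp1 and Lpl lie to the left in both panels, and Apoe at 1.84 and Gpnmb at 0.36 are the genes called higher with R788 without TCM.

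Counted over the members, NB9464 TCM against NS gave 1 higher, 6 lower and 1 not called, where 17.2% of all tested genes were called higher and 16.9% lower. NBT3L TCM gave the same numbers, with 18.0% and 17.3% of all genes. The median change of the members was -0.94 with NB9464 TCM and -1.13 with NBT3L TCM, beside 0.021 and 0.000 over all tested genes. R788 without TCM gave 2 higher, 5 lower and 1 not called (11.6% and 15.0% of all genes), with a member median of -0.45. In NB9464 TCM it gave 1, 6 and 1 (5.79% and 8.70%, median -0.53), and in NBT3L TCM 0, 6 and 2 (5.33% and 7.24%, median -0.48). The comparisons of R788 and of each TCM with NS share the NS libraries. Since the members were selected with these results in view, nothing is read from the counts.

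How the R788 effect depended on medium was compared gene by gene. Against no TCM, the effect in NB9464 TCM was called different for Spp1, Lpl, Gpnmb and Apoe, 1 higher and 3 lower, where 6.22% and 6.26% of all genes were called. In NBT3L TCM the same 4 genes were called, 2 higher and 2 lower, with 5.17% and 4.96% of all genes. Without SJ8 the same 4 genes were called in each, joined by Fabp5 in NB9464 TCM. Between the 2 TCMs, Spp1 was the gene called, lower, where 0.283% of all genes were called higher and 0.424% lower. For Trem2 this last difference was -0.34 ± 0.095 and not called in the fit of all libraries, but called under several other settings. Fabp4 (0.90 ± 0.305) was not called.

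**Figure D3:**
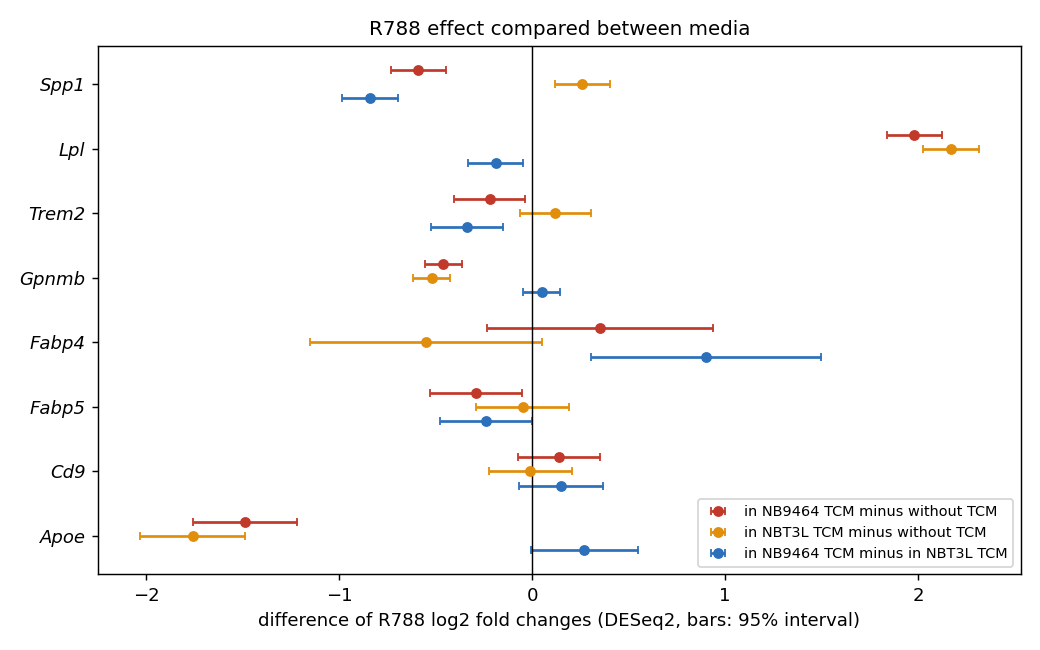
Difference of the R788 log2 fold change between media for each gene, with 95% intervals from the DESeq2 fit. Lpl lies at 1.98 and 2.17 and Apoe at -1.49 and -1.76 against no TCM, and Spp1 at -0.84 between the 2 TCMs.

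The TREM2 complex and its signaling list held 10 genes, all tested. This list and those that follow, the companion genes, were also chosen with earlier results known, so their adjusted p-values are descriptive. The shares of all tested genes called in these comparisons are those given with the members. Nothing is read from the number of genes called in a list. Syk, the target of R788, rose with NB9464 TCM (1.18 ± 0.051, adjusted p = 5.26e-116) and NBT3L TCM (1.32 ± 0.051, adjusted p = 1.64e-144), from 15428 and 14546 normalized counts in NS to 34238 and 33632 and to 37102 and 37581. R788 raised Syk transcripts slightly in each medium (0.26, 0.32 and 0.24, adjusted p = 3.42e-06, 7.32e-09 and 5.64e-05, and 0.29 without TCM when SJ8 was left out). Tyrobp, the DAP12 adaptor, was called only with R788 in NB9464 TCM (0.41 ± 0.150, adjusted p = 0.0374) among the comparisons with NS and of R788, a call lost in 8 of the 12 fits that left out a library, where the values ran from 0.35 to 0.47. It was uneven in the R788 pair, with 30520 and 22392 normalized counts, and without SJ8 the R788 change without TCM (0.03, not called) became 0.24 and called. With NB9464 TCM 3 of the 10 genes rose and 3 fell, and with NBT3L TCM 4 rose and 3 fell, with Trem3 (2.69 and 3.12) and Treml4 (1.79 and 2.61), relatives of Trem2, rising most. R788 gave 5 higher and 1 lower without TCM (4 and 1 without SJ8), 4 and 1 in NB9464 TCM, and 2 and 1 in NBT3L TCM. Without TCM the named genes were Treml4 (0.70, 0.44 without NS library 2 and 0.79 without SJ8) and Trem3 (0.52, and 0.70 without SJ8), and the Trem3 call was lost without R788 library 7 (0.33). Trem1, a receptor that amplifies inflammation, fell with R788 in NB9464 TCM (-1.21 ± 0.167, adjusted p = 2.25e-11) and NBT3L TCM (-1.23 ± 0.173, adjusted p = 6.33e-11). Adam17 (0.22) rose with R788 in NBT3L TCM, a call lost when NBT3L_TCM library 5 (0.19) or NBT3L_TCM_R788 library 12 (0.20) was left out.

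The list of other genes of lipid-associated and disease-associated macrophages held 20, all tested. With NB9464 TCM 4 rose and 13 fell, and with NBT3L TCM 4 rose and 10 fell. Axl, a receptor for apoptotic cells, fell with both (-2.26 ± 0.227 and -2.48 ± 0.229, adjusted p = 3.38e-22 and 4.66e-26), as did Igf1, a growth factor (-2.05 and -1.89), and Timp2, a protease inhibitor (-1.58 and -1.54). R788 gave 4 higher and 13 lower without TCM (5 and 11 without SJ8), 1 and 7 in NB9464 TCM, and 0 and 8 in NBT3L TCM. Without TCM, Cst7 (-2.18 ± 0.540, -3.41 without R788 library 7 and -1.51, still called, without SJ8), Itgax (-1.01, adjusted p = 0.0165, lost without any of the 4 libraries compared, -1.03 to -0.99, the latter without SJ8) and Axl (-0.92, and -1.28 without SJ8) fell. In TCM, the chemokine gene Ccl6 (-0.98 ± 0.084 in NB9464 TCM, adjusted p = 6.96e-29, and 5.7e-30 in NBT3L TCM) and the protease gene Ctsl (-0.42 and -0.57) fell. Ctsl was also lower with R788 without TCM, with 82195 and 80728 normalized counts against 139701 and 146460 in NS. Axl was 0.68 higher with R788 in NB9464 TCM (adjusted p = 0.0213 with DESeq2 and 0.0506 with edgeR, and lost without NB9464_TCM library 4, 0.53, or NB9464_TCM_R788 library 10, 0.56) and lower in NBT3L TCM (-0.98 ± 0.241, adjusted p = 0.000695, and -0.67 and not called without NBT3L_TCM_R788 library 11).

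Of 21 genes that regulate lipoprotein lipase or lipid uptake, storage and efflux, 17 were tested, and Gpihbp1, Apoc1, Apoc2 and Apoc4 had too few reads. With NB9464 TCM 7 rose and 1 fell, and with NBT3L TCM 7 rose and 2 fell. Acsl1, which activates long-chain fatty acids, rose by 1.63 ± 0.075 and 2.37 ± 0.075 (adjusted p = 5.47e-102 and 2.17e-215), and Dgat2, which makes triglycerides, by 2.32 and 1.51. Lrp1 (-0.74) fell with NB9464 TCM, and Abcg1, a cholesterol exporter, with NBT3L TCM (-1.72 ± 0.118, adjusted p = 4.98e-46). Lrp1 was also lower with NBT3L TCM, with 54766 and 52116 normalized counts against 91057 and 86349 in NS. R788 gave 3 higher and 6 lower without TCM (2 and 6 without SJ8), 2 and 4 in NB9464 TCM, and 0 and 2 in NBT3L TCM. Abcg1 fell with R788 without TCM (-1.40 ± 0.115, adjusted p = 4.27e-32, and -1.44 without SJ8) and in NB9464 TCM (-0.53, adjusted p = 6.38e-05). The scavenger receptor gene Msr1 fell in each medium (-0.30, -0.78 and -0.70, and -0.29 without TCM when SJ8 was left out).

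Of 12 transcription factor genes tied to the members, 11 were tested. Pparg, which codes for a regulator of Fabp4 and other lipid genes, fell with NB9464 TCM (-2.41 ± 0.319, adjusted p = 5.2e-13), with NBT3L TCM (-2.42 ± 0.322, adjusted p = 5.8e-13) and with R788 without TCM (-1.66 ± 0.315, adjusted p = 1.56e-06, and -1.52 without SJ8). Its normalized counts were 830 and 761 in NS, and 278 and 226 with R788. In TCM the R788 changes of Pparg were -0.56 for NB9464 (adjusted p = 0.269) and -0.66 for NBT3L (adjusted p = 0.191), and neither was called. The NBT3L change was -1.35 and called without NBT3L_TCM_R788 library 11, and -0.20 and not called without library 12. Nr1h3, the liver X receptor alpha gene, was higher with R788 without TCM (0.52 ± 0.126, adjusted p = 0.000245, and 0.68 without SJ8), in NB9464 TCM (0.45, adjusted p = 0.00322) and in NBT3L TCM (0.59, adjusted p = 3.25e-05), and the call in NB9464 TCM was lost without NB9464_TCM library 4 (0.40) or NB9464_TCM_R788 library 9 (0.44). It also rose with NBT3L TCM (0.89), whereas with NB9464 TCM the change was 0.19 and not called. Mitf fell with TCM (-0.50 and -0.54) and with R788 without TCM (-0.36, a call lost without NS library 1, -0.29, and -0.38 without SJ8). With NB9464 TCM 1 factor rose and 4 fell, with NBT3L TCM 3 and 5, with R788 8 and 2 without TCM (the same numbers without SJ8), 2 and 2 in NB9464 TCM, and 3 and 1 in NBT3L TCM. Ppard rose with TCM (0.96 and 1.18), Bhlhe40 fell with NB9464 TCM (-0.77) and with R788 in it (-0.53), and Rxra (0.89, and 0.98 without SJ8) and Tfeb (0.63, and 0.61) rose with R788 without TCM. Tfeb also rose in TCM (0.54 and 0.49), and Tfec fell in NBT3L TCM (-0.47, and -0.41 and not called without NBT3L_TCM library 5). Tfec was also lower with R788 in NB9464 TCM, with 1069 and 983 normalized counts against 1390 and 1366 without R788.

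**Figure D4:**
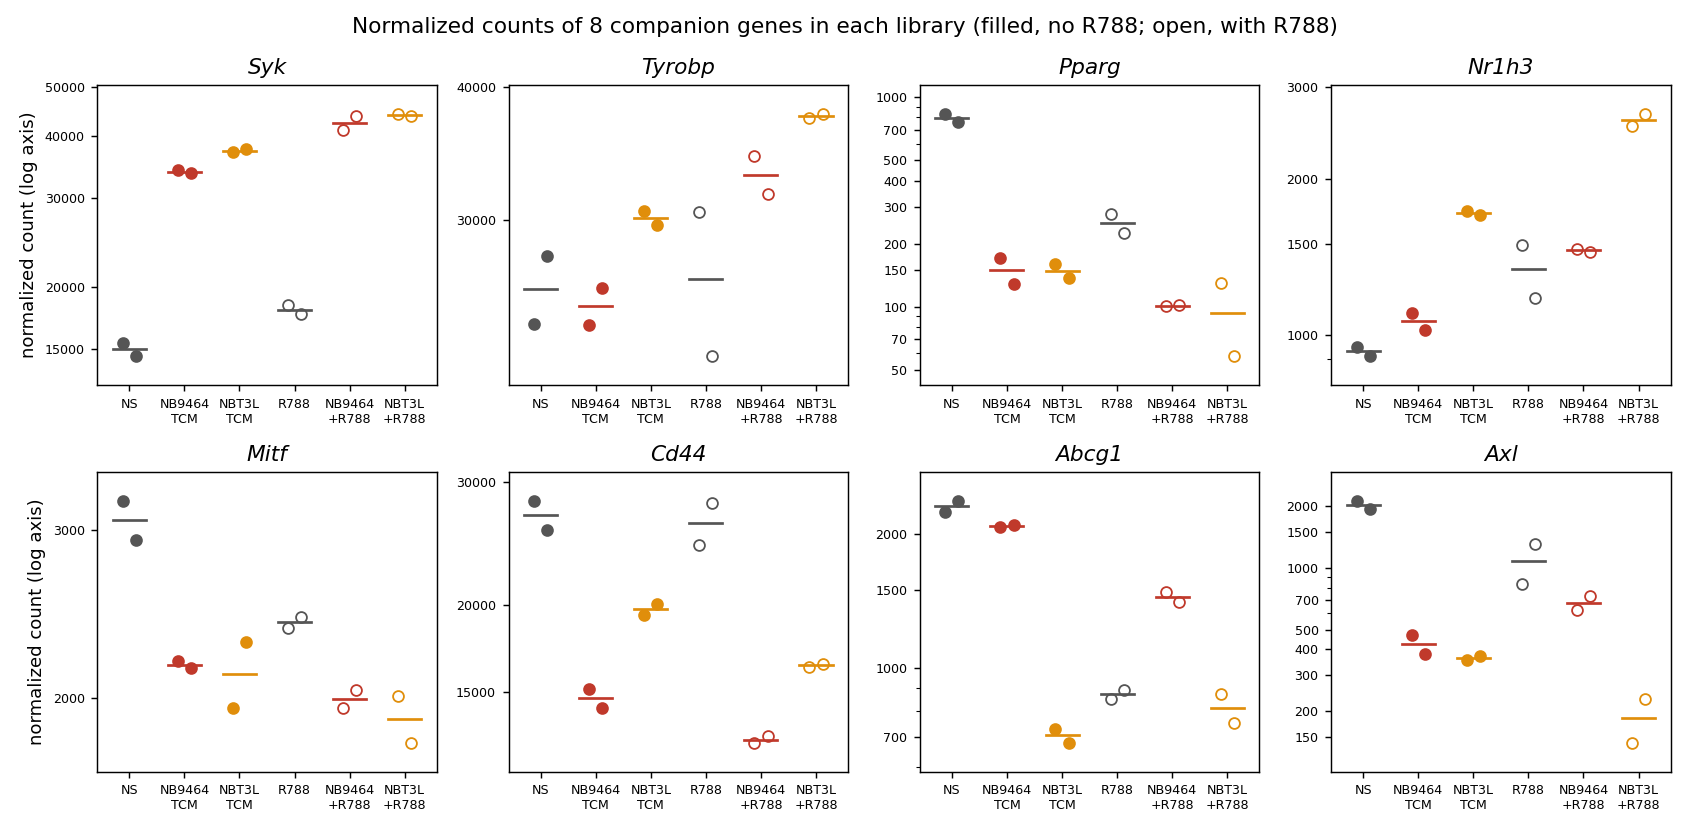
Normalized counts (log axis) of 8 companion genes in each library, by group. Points are libraries (filled without R788, open with R788) and lines are group means; Pparg runs from 830 and 761 in NS to 129 and 58.3 with NBT3L TCM and R788, and Syk is higher in every library with TCM than in any without.

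Receptors of osteopontin numbered 8, all tested. Cd44 fell with NB9464 TCM (-0.87 ± 0.070, adjusted p = 1.36e-34) and NBT3L TCM (-0.45 ± 0.070, adjusted p = 1e-09), and with R788 the change was -0.04 without TCM (not called, adjusted p = 0.741, and -0.15 without SJ8). R788 lowered Cd44 in NBT3L TCM (-0.27, adjusted p = 0.00169) and NB9464 TCM (-0.20, adjusted p = 0.0312), the latter lost with edgeR (adjusted p = 0.0608), and the first call was lost without NBT3L_TCM library 6 (-0.24) and the second without any of 4 libraries (-0.24 to -0.15 over all 12). The integrin gene Itga9 rose most with TCM (3.20 ± 0.151 and 2.82 ± 0.152, adjusted p = 1.01e-97 and 7.1e-75), and Itgb5 (-1.74 and -2.12) and Itgav (-1.05 and -0.76) fell. With TCM 2 rose and 5 fell for NB9464, and 2 rose and 4 fell for NBT3L. R788 gave 2 higher and 3 lower in each of the 3 media, and the same numbers without TCM when SJ8 was left out. Itgb5 rose with R788 in each medium (0.66, 0.27 and 0.42), as did Itga4 (0.50, 0.42 and 0.42), and Itga5 fell without TCM (-0.59). Without SJ8 the changes without TCM were 0.64 for Itgb5, 0.37 for Itga4 and -0.57 for Itga5, all called. The calls of Itgb5 and Itga4 in NB9464 TCM were lost when either of 2 libraries was left out (at 0.19 and 0.21 for Itgb5 and at 0.25 and 0.36 for Itga4). That of Itga4 in NBT3L TCM was lost for 1 library (at 0.37).

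Of 16 relatives of the members, 10 were tested. Fabp1, Fabp2, Fabp6, Fabp12 and Pmp2 had no reads in any library, and Fabp9 had at most 5 counts, so among fatty acid binding proteins the relatives tested were Fabp3 and Fabp7. Fabp3, a muscle and heart form, rose with NBT3L TCM (1.26 ± 0.299, adjusted p = 0.000117) and fell with R788 in NBT3L TCM (-1.23, adjusted p = 0.000596) and without TCM (-0.79, adjusted p = 0.0379). The last call was lost in 11 of the 12 fits that left out a library, and the values over all 12 ran from -1.35 to -0.38, the latter without SJ8. Fabp7 fell with NB9464 TCM (-0.48) and with R788 in NBT3L TCM (-0.54, and -0.47 and not called without NBT3L_TCM_R788 library 12). The tetraspanin gene Cd82 rose with each TCM (1.13 and 1.09) and with R788 in each medium (0.77, 0.53 and 0.42), in the direction opposite to Cd9, and without SJ8 the change without TCM was 0.86. Of the other tetraspanins, Cd37 rose with NB9464 TCM (0.45) and with R788 without TCM (0.20, and 0.27 without SJ8) and in NB9464 TCM (0.26), Cd53 with NBT3L TCM (0.51), and Cd81 with R788 in NB9464 TCM (0.31, and 0.20 without NB9464_TCM library 3). The Cd37 calls with R788 were each lost without either of 2 libraries (at 0.12 and 0.17 without TCM, and at 0.20 and 0.24 in NB9464 TCM). In all, 3 of the 10 rose and 1 fell with NB9464 TCM, 4 and 0 with NBT3L TCM, 2 and 1 with R788 (2 and 0 without SJ8), 3 and 0 with R788 in NB9464 TCM, and 1 and 3 in NBT3L TCM.

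The 2 media were also compared with each other. Of the 8 members, 3 were higher and 2 lower in NB9464 TCM than in NBT3L TCM (3.69% and 5.72% of all genes), and with R788 3 were higher and 3 lower (3.53% and 6.09%). Gpnmb was lower in NB9464 TCM without and with R788 (-0.25 and -0.19), Fabp4 higher (1.02 and 1.92) and Fabp5 lower (-0.34, a call lost without NB9464_TCM library 3 at -0.31, and -0.58). Apoe was higher with R788 (0.35), a call lost without library 9, 11 or 12 (0.33 to 0.36). Over the 76 companion genes tested, 7 were higher and 22 lower without R788, and 8 and 23 with it. Among the named genes called in every fit that left out a library, Abcg1 was higher in NB9464 TCM (1.57 ± 0.119, adjusted p = 3.01e-37), and Cd36, a fatty acid transporter gene (-0.96 ± 0.048, adjusted p = 2.98e-84), Acsl1 (-0.74) and Nr1h3 (-0.69, adjusted p = 1.24e-06) were lower. With R788, Axl was 1.87 ± 0.237 higher in NB9464 TCM than in NBT3L TCM (adjusted p = 2.91e-13), and Abcg1 (0.83) was also higher and Cd36 (-0.88) and Nr1h3 (-0.83) lower. Syk (-0.14, adjusted p = 0.0502), Tyrobp (-0.27), Pparg (0.01) and Mitf (0.03) were not called without R788.

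The genes whose levels most resembled 3 of the members were found by Pearson correlation of log2 normalized counts over the 12 libraries among 10702 genes that averaged 100 or more. The libraries fall into 6 groups, so the correlations describe group differences. For Spp1 they were Nup85 (r = 0.9827), Hip1 (0.9821), Ifi209 (0.9786), Nes (0.9784) and H2-T23 (0.9779), and Nes, for example, went from a mean of 1523 normalized counts in NS to 12.8 and 26.3 in the combinations. For Fabp5 they were Pdpn (r = 0.9778), Tspan4 (0.9689), Map2k1 (0.9578), the Fabp5 pseudogene Gm6166 (0.9535) and Rtraf (0.9393). For Gpnmb they were Cd84 (r = 0.9946), Slc40a1 (0.9908), Kif3a (0.9860), Entpd1 (0.9839) and Cd83 (0.9821), and Slc40a1 had a mean of 4354 in NS and 7552 with R788. By Spearman correlation, 0, 1 and 0 of these genes were also in the top 5 for Spp1, Fabp5 and Gpnmb.

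The neutrophil list (6 markers) summed to 299 to 459 TPM without TCM and 547 to 765 TPM with it, with S100a8, a gene that macrophages can also express, at a mean of 116 TPM in NS and 465 and 558 TPM with TCM. S100a9, Elane and Mpo were lower with TCM, with S100a9 at 303 TPM in NS and 210 and 179 TPM with TCM, Elane at 3.71 against 0.147 and 0 TPM, and Mpo at 1.3 against 0 and 0.046 TPM. Its part in the TCM results was not tested.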

How the data were processed

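Libraries of poly(A) RNA from mouse BMDMs were deposited as a table of whole-number read counts per Ensembl gene, made by the authors with no division by depth or length. STAR was used by the authors for alignment to mm10 and Salmon for quantification (STAR 2.6.1d, Salmon 1.4.0, SAMtools 1.9, Picard 2.26 and MultiQC 1.11 per the processing notes). Strand handling and reads mapping to several places were not stated. Labels give paired-end reads and 2 libraries per group, whereas the methods give single reads in triplicate. Even values made up 65.2% to 67.9% of counts from 1 to 40 per library, so halved counts were an alternative.

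Gene IDs were matched to GENCODE M21 (mm10): 54165 of 54232 had a symbol. Genes reaching 10 counts in 2 or more libraries were fitted together in DESeq2 1.42.0 (R 4.3.3, Wald test, Benjamini-Hochberg, called at adjusted p under 0.05, log2 fold change ± SE). The members, the 6 lists of companion genes (87 genes, 76 tested), the markers and the tests were chosen with earlier results of these data known, so no p is given for members. The adjusted p-values of the companions share this limit and are descriptive. Named companions are the 3 genes per list with the largest fold among those called with a mean of at least 100 normalized counts, plus Tyrobp, Syk, Pparg, Nr1h3, Mitf and Cd44. A gene named for a contrast may also have changed in others where it is not named. A companion gene that the rule names is not reported here, though the counts of its list include it. Alternatives were edgeR 4.0.16 (quasi-likelihood, TMM), TMM in DESeq2, other count filters, a fit of only the libraries compared, a log2 minimum of 1 and leaving out each library. Scripts were tested on simulated data. Counting error is small for genes with high counts. It is larger for genes with few, such as Cst7 (41.8 and 11.2 normalized counts with R788 alone). The 2 libraries per group limit the precision.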

Additional observations from a re-analysis of the deposited data

Results flagged for a closer look

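The R788 effect differed between media by an interaction test for the genes below, given as the difference of log2 fold changes from DESeq2. Calls made by an interaction term in 2 libraries per group are values only, and no explanation was tested. Among the members, the effect in NB9464 TCM minus that without TCM was -0.59 for Spp1, 1.98 for Lpl, -0.46 for Gpnmb and -1.49 for Apoe. In NBT3L TCM minus without TCM it was 0.26 for Spp1, 2.17 for Lpl, -0.52 for Gpnmb and -1.76 for Apoe, and in NB9464 TCM minus in NBT3L TCM it was -0.84 for Spp1. Without the second R788 library the first 4 were -0.63, 2.0, -0.46 and -1.36 and the next 4 were 0.21, 2.19, -0.51 and -1.64.

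Among the companions, the NB9464 TCM difference was -0.23 for Inpp5d, 0.23 for Adam10, -0.96 for Trem1, 1.60 for Axl, -1.11 for Ccl6, -0.55 for Timp2, 0.87 for Abcg1 and 0.89 for Acsl1. It was -0.83 for Tfec, -0.83 for Bhlhe40, -0.73 for Bhlhe41, -0.39 for Itgb5 and 0.40 for Itga5. Without the second R788 library these 13 values were -0.21, 0.25, -1.15, 1.96, -1.25, -0.58, 0.91 and 1.02, and then -0.90, -0.73, -0.74, -0.37 and 0.39, and the call of Inpp5d was lost. The NBT3L TCM difference was -0.98 for Trem1, -0.55 for Trem3, 0.65 for Lgals1, 0.46 for Cd36, -1.13 for Ccl6, -0.40 for Msr1, 1.61 for Abcg1 and 0.54 for Acsl1. It was -0.78 for Ppard, -0.57 for Rxra, -0.88 for Tfec, 0.40 for Itga5, 0.60 for Itga9, -0.35 for Cd82 and -0.22 for Cd53. Without that library they were -1.17, -0.73, 0.44, 0.50, -1.28, -0.41, 1.64 and 0.67, and then -0.66, -0.66, -0.94, 0.38, 0.45, -0.45 and -0.26, and the call of Itga9 was lost. Between the 2 TCMs it was 1.66 for Axl and -0.74 for Abcg1. Of these, edgeR did not call Inpp5d and Adam10 (NB9464), Trem3, Itga9, Cd82 and Cd53 (NBT3L), or Axl and Abcg1 between the TCMs. Leaving out some single libraries ended the call for the same genes, for Spp1 in NBT3L TCM (at 0.23 and 0.24) and for Lgals1 (at 0.57 to 0.69) and Itgb5 (at -0.33 and -0.30).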

How the results depend on the processing

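No paired analysis was possible because the labels number the libraries 1 to 12 and no number is shared between groups. Of 1530 values of the 8 genes' fold changes under 20 settings, 1444 kept their direction and their side of the threshold, 54 lost the call, 23 gained it and 9 changed sign. The median log2 change over all genes lay between -0.021 and 0.031 in every contrast under the 3 scalings. Summing Fabp5 with its pseudogenes and using the principal transcript length were chosen after seeing the data.

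The shares of all tested genes called under the settings below are not given, so nothing is read from these counts. Requiring a log2 change of at least 1 left 4, 4, 1 and 1 of the members called for NB9464 TCM and NBT3L TCM against NS and for the TCMs against each other without and with R788, 4, 1 and 2 for R788 (no TCM, NB9464 TCM, NBT3L TCM), and 2, 2 and 0 for the interactions. For the companions it left 18, 19, 1, 2, 6, 1, 2, 2, 2 and 1 in the same order. For the interaction between the TCMs, 1 member was called in the fit of all libraries, 2 with TMM scaling, with no count filter and with a mean of at least 50 counts, and 5 in a fit of only the libraries compared, which held 8 libraries. The companions there were 2, and 0 with edgeR, 4 with TMM scaling and 7 with only the libraries compared. With only the libraries compared, R788 in NBT3L TCM called 43 companions in place of 26.

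Leaving out each library in turn gave 6 to 7, 7, 4 to 5, 4 to 6, 7, 5 to 8, 6 to 7, 4 to 5, 3 to 4 and 1 to 2 members called, and 41 to 48, 43 to 52, 18 to 38, 17 to 36, 35 to 49, 23 to 33, 21 to 33, 20 to 34, 17 to 28 and 1 to 5 companions, in the same order. Signs changed within these ranges for values not called in the fit of all libraries. Between the TCMs they were -0.04 to 0.11 for Trem2, -0.06 to 0.20 for Apoe, -0.21 to 0.20 for Pparg and -0.08 to 0.15 for Mitf, and with R788 -0.36 to 0.80 for Pparg and -0.01 to 0.15 for Mitf. With R788 without TCM they were -0.02 to 0.12 for Trem2, -0.15 to 0.06 for Cd44 and -0.21 to 0.24 for Tyrobp, which was called lower without R788 library 7, and with NB9464 TCM -0.16 to 0.05 for Tyrobp. For the NBT3L interaction they were -0.21 to 0.12 for Fabp5, -0.11 to 0.08 for Cd9, -0.07 to 0.02 for Syk and -0.09 to 0.25 for Nr1h3, for the NB9464 interaction -0.23 to 0.11 for Nr1h3, and between the TCMs -0.37 to 0.79 for Pparg and -0.08 to 0.15 for Mitf. By Spearman in place of Pearson correlation, 0, 1 and 0 of the 5 genes most like Spp1, Fabp5 and Gpnmb stayed in the top 5. The cause was not tested.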
